A study of Mus musculus with 10 samples.

Results

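Promoters of the keratin and beta-defensin genes were followed in mature mouse eggs, that is, oocytes arrested at metaphase II (MII) before fertilisation. A promoter window of 2000 bp was taken as a member when its centre lay within 200 bp of the annotated start of a protein-coding gene named Krt or Defb plus a number. Of 95 such genes in the reference, 75 had a window in the deposited tables: 48 of 53 keratin genes, with 50 windows, and 27 of 42 beta-defensin genes, with 29 windows. All 3 pools listed a window for 44 keratin genes and for 10 beta-defensin genes, out of 40537 nuclear windows that they shared. For a gene with several windows, the window best covered in its poorest pool was used.

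The oocytes came from C57BL6/129 mice, and 10 libraries were made: 4 of 2-month WT (wild-type) mice, 3 of 11-month WT mice and 3 of 2-month Tet2KO mice, a Tet2 knockout. TET2 is an enzyme that oxidises 5-methylcytosine. The labels give neither the design of the Tet2 allele nor how many animals gave oocytes, and they conflict on the input, naming both 10 oocytes per sample and a single oocyte. Each group was deposited as 1 pool with a single value per window, so the spread between libraries is unknown and no comparison below has a replicate check or a test.

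Bisulfite sequencing reads a protected cytosine as methylated, and it does not separate 5-methylcytosine from 5-hydroxymethylcytosine. The level of a window is the share of its CpG calls that were methylated, in percent. Differences between pools are given in percentage points, called points. Intervals after levels (Wilson) and after differences (Newcombe) are 95% intervals that cover counting error only, since calls from PCR copies and from neighbouring CpGs of a read are not independent. Calls in nuclear windows numbered 9392359 at 2 months in WT, 16993859 at 11 months and 5464356 in Tet2KO, with medians of 100, 159 and 75 per window. Over the windows shared by all 3 pools the medians were 131, 245 and 79. Members were thinner: the median shared keratin window held 73 calls in 2-month WT, 119 at 11 months and 41 in Tet2KO, and the median shared beta-defensin window 42, 59 and 23.5. Among 14 maternally imprinted promoters, which mark the oocyte genome, the middle value was 94.5% for 2-month WT, 91.3% for 11-month WT and 83.0% for Tet2KO, whereas H19, imprinted on the paternal copy, stood at 4.21%, 1.61% and 2.50%. Of the 14, 7 were at 80% or more in every pool, whereas the windows at the starts of Gnas, Grb10, Inpp5f and Mest were under 20% in every pool.

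Keratins are the intermediate filament proteins of epithelia, hair and nails. A type I keratin pairs with a type II keratin to form a filament. In the mouse the type I genes lie together on chromosome 11 and the type II genes on chromosome 15, where Krt18, a type I gene, is the neighbour of its type II partner Krt8. Beta-defensins are small cationic antimicrobial peptides held by disulfide bonds. They are secreted by skin and mucosal epithelia, and many are made in the epididymis, where some coat sperm. Most members of both families are products of epithelia rather than of the egg, and in growing oocytes methylation is known to be laid down mainly across transcribed regions.

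The RefSeq sequences below run from 250 bases before to 50 bases after the promoter start and are on build GRCm38.p6, the assembly that mm10 represents, read 5′ to 3′ on the strand of the gene. That start is the annotated gene start for those shown except Krt12, where it lies 334 bp inside the annotated gene. Capitals mark the CpG dinucleotides, the positions whose methylation was counted. Krt84 and Krt12 are shown because their windows were among the few highly methylated ones. Krt84, a hair keratin, is on the minus strand at chr15:101532771-101533070 with 3 CpGs, and Krt12, the keratin of the cornea, is on the minus strand at chr11:99422210-99422509 with 8.
Krt84: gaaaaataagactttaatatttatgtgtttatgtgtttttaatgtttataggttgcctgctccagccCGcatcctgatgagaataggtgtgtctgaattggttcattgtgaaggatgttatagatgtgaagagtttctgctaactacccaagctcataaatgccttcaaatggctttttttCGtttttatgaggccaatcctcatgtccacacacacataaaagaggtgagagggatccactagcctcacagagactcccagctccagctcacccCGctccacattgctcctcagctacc
Krt12: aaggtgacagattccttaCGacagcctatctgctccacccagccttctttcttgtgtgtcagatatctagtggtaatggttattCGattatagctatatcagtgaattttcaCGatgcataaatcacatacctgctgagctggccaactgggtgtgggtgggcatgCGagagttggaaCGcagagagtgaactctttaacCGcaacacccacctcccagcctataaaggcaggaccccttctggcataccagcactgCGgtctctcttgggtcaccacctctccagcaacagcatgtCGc
Krt7 and Krt28 are shown because their levels lay far apart between pools. Krt7, a keratin of ducts and other simple epithelia, is on the plus strand at chr15:101412153-101412452 and is the most CpG-rich of the 36 keratin sequences, with 21 CpGs. Krt28, a keratin of the inner root sheath around the hair, is on the minus strand at chr11:99374854-99375153 with 10.
Krt7: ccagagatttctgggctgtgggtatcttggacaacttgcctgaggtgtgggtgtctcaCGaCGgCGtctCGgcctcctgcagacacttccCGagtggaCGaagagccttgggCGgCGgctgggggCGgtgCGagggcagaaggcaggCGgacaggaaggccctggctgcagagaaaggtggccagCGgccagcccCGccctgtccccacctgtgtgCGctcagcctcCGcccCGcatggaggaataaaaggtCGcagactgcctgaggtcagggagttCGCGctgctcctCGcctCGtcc
Krt28: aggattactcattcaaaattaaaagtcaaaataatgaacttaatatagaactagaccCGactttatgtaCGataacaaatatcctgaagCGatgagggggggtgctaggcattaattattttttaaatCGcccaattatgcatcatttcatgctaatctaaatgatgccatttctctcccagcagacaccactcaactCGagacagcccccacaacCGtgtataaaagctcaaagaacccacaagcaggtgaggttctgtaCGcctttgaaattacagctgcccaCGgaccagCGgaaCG
Krt18 and Krt5 stand for the keratins that carried some methylation in 2-month WT and little in the other pools. Krt18, a keratin of simple epithelia, is on the plus strand at chr15:102027966-102028265 with 17 CpGs, and Krt5, of the basal layer of the epidermis, on the minus strand at chr15:101712856-101713155 with 6.
Krt18: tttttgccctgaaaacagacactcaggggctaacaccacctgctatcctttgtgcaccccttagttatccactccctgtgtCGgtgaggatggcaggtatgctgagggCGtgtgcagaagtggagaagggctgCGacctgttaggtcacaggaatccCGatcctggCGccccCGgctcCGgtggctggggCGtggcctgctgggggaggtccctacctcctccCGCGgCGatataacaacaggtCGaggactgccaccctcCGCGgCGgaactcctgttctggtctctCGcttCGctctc
Krt5: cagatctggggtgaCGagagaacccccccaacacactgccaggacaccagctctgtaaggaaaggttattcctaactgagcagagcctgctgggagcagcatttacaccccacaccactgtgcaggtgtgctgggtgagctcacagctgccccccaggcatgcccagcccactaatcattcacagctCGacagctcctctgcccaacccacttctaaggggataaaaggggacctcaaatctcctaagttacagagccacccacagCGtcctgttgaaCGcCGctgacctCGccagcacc
Defb15 and Defb36 are the methylated and the unmethylated example among the beta-defensins. Defb15 is on the minus strand at chr8:21932661-21932960 with 6 CpGs, and Defb36 on the plus strand at chr2:152604077-152604376 with 8.
Defb15: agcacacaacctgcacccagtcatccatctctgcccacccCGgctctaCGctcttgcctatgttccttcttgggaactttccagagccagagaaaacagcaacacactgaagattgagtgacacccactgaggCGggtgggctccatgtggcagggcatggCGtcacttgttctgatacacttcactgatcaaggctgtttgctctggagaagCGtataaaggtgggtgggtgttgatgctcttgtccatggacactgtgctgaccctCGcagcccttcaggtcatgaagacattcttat
Defb36: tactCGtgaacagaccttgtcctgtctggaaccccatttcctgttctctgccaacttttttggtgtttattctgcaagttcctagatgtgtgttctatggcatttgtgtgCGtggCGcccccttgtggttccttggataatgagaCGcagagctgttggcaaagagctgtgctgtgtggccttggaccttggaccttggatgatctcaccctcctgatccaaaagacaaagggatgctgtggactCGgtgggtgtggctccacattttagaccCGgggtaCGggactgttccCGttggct

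The members are poor in CpGs. RefSeq promoter sequences were found for 36 keratin and 29 beta-defensin genes. The 300-base sequences held a median of 5 CpGs in the keratins (range 2 to 21) and of 1 in the beta-defensins (range 0 to 8), against 13 over 21263 protein-coding promoters. No CpG at all was present in 6 of the 29 beta-defensin sequences (20.7%), 0 of the 36 keratin sequences and 4.63% of all promoters. The G and C share was 48.8% in the median keratin, 48.3% in the median beta-defensin and 56.3% over all. The motif TATAAA, searched on both strands, stood in 19 of 36 keratin sequences (52.8%), 5 of 29 beta-defensin sequences (17.2%) and 12.6% of all. On the gene's own strand and starting 24 to 36 bases before the start, the usual place of a TATA box, it stood in 12 keratins (33.3%), 2 beta-defensins (6.90%) and 2.35% of all. TGANTCA, searched on both strands, was held by 1 keratin (2.78%), 2 beta-defensins (6.90%) and 6.99% of all. These matches describe the letters only.

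Most keratin promoters carried little or no methylation in the 3 pools. The median level of the 44 shared genes was 2.52% for 2-month WT, 3.10% for 11-month WT and 1.67% for Tet2KO, beside 3.23%, 2.72% and 2.17% over all shared windows. Levels under 20% were found for 39 of 44 keratins in 2-month WT (80.1% of all shared windows), 40 in 11-month WT (80.8%) and 40 in Tet2KO (80.5%). All 3 pools were under 20% for 38 of 44 keratins (86.4%), against 75.9% of all windows, and under 5% for 16, against 46.6% of all windows. A level of 80% or more in all pools was seen for 1 keratin, Krt80, against 9.74% of all windows, and 2 keratins, Krt7 and Krt88, were from 20 to under 80% in all pools, against 3.25%.

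**Figure D1:**
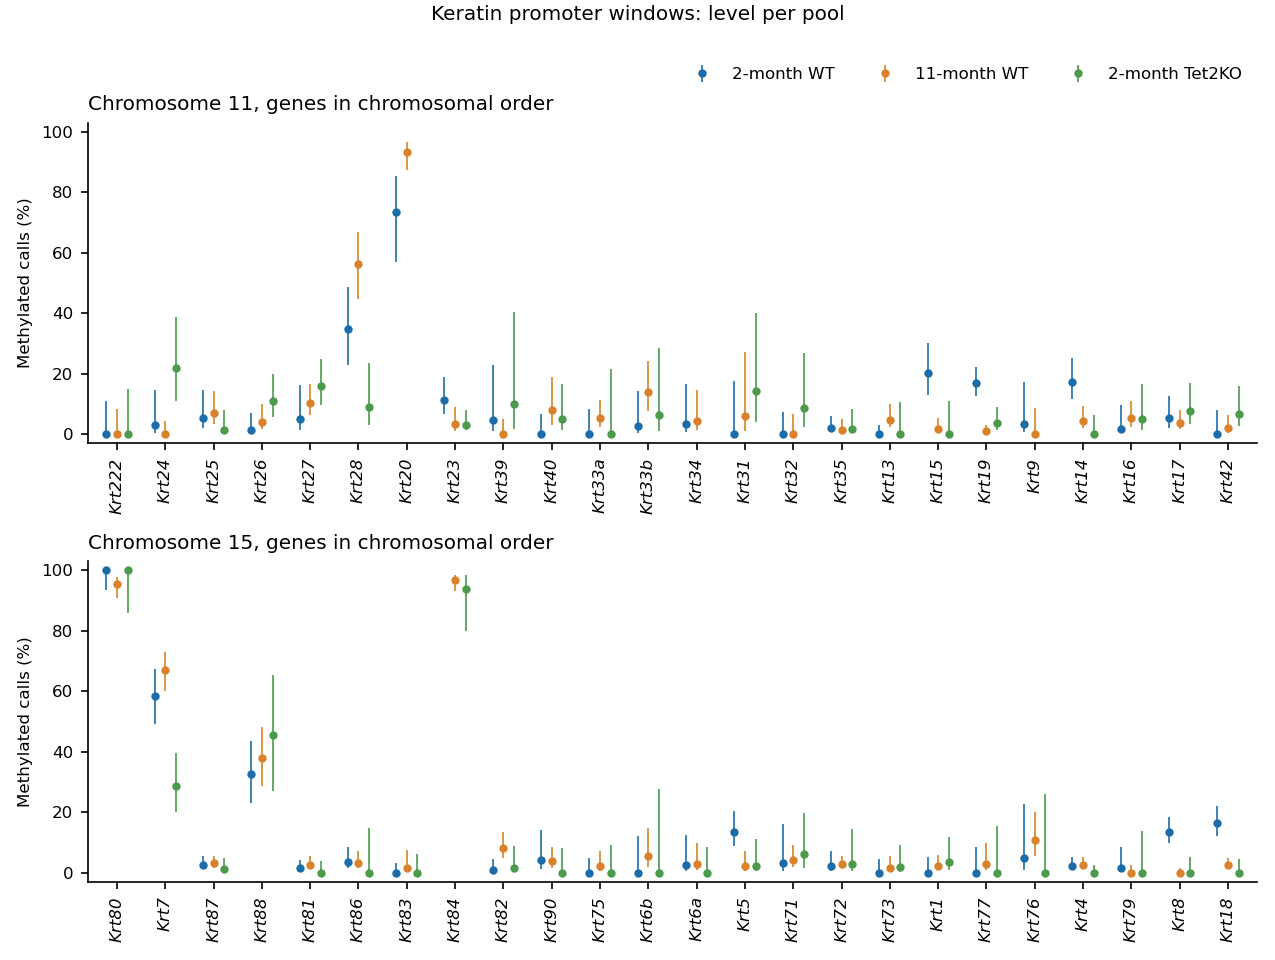
Methylation level (percent of CpG calls) of the keratin promoters in the 3 pools, 1 point per gene and pool with its Wilson 95% interval (counting error only). Most points lie under 20%, while Krt80 sits at 95.3% or more in each pool.

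Low levels at few CpGs set the keratins beside a background that is mixed. In windows with 5 to 29 covered CpG positions, 57.6% of all shared windows had a mean level over the pools under 20% and 26.9% had 80% or more, whereas 16 of 17 such keratins (94.1%) were under 20% and 0 were at 80% or more. In windows with 30 to 49 positions, 20 of 22 keratins (90.9%) were under 20%, against 71.4% of all. With 50 positions or more the order turned, with 4 of 5 keratins under 20% against 94.5% of all. Spearman's rho between mean level and covered positions was 0.129 over the 44 keratins, and 0.301 between mean level and the CpGs of the 300-base sequence over 27. Both are descriptions over genes that share libraries and neighbourhoods. The difference from the background was not tested.

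**Figure D2:**
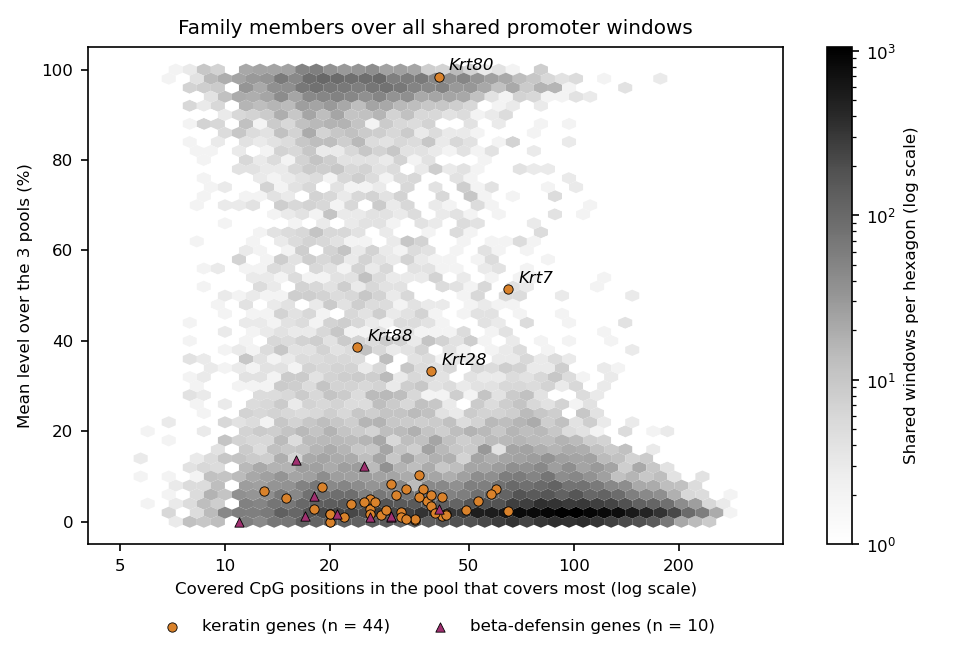
Mean methylation level over the 3 pools (percent of CpG calls) against the number of covered CpG positions in the window, 1 point per shared keratin or beta-defensin gene over grey hexagons that count all shared windows. Points lie near the bottom across the range of positions, with Krt80, Krt7, Krt88 and Krt28 above 30%.

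Levels are given next by the members' roles. Several keratins of stratified epithelia were low. Krt1, of the suprabasal epidermis, stood at 0% of 69 calls in 2-month WT, 2.08% of 144 at 11 months and 3.51% of 57 in Tet2KO. Krt16, which is induced in wounded skin, stood at 1.79%, 5.22% and 5%, and its relative Krt17 at 5.19%, 3.77% and 7.69%. Krt6a, their type II counterpart in stressed epidermis, stood at 2.44%, 2.82% and 0%. Krt4 and Krt13, the pair of the oral and oesophageal lining, stood at 2.07%, 2.66% and 0% and at 0%, 4.76% and 0%. None of these genes left the band under 10% in any pool. Krt9, the keratin of footpad epidermis, was listed only in the WT pools, at 3.45% and 0%.

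The hair keratins, which build the hair shaft, ran from unmethylated to highly methylated. All 7 shared type I hair keratins were under 20% in every pool, with medians of 0%, 5.36% and 6.25%. Krt31 is thinly covered, with 0% of 18 calls in 2-month WT, 5.88% of 17 at 11 months and 14.3% of 14 in Tet2KO. Krt34 was listed in the WT pools only, at 3.33% and 4.35%. Among the 6 shared type II hair keratins 5 were under 20% in every pool: Krt81 stood at 1.46%, 2.67% and 0%, Krt83 at 0%, 1.39% and 0%, and Krt86 at 3.48%, 3.16% and 0%. A further type II hair keratin, Krt84, was listed in 11-month WT and Tet2KO only and was above 90% in both. The other shared one, Krt88, was intermediate throughout, at 32.5% of 77 calls, 38.0% of 92 and 45.5% of 22. Its deposited fraction, the mean over positions, was 18.5% in 2-month WT, 22.0% at 11 months and 51.5% in Tet2KO, so its value depends on how positions are weighted.

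The inner root sheath keratins, which shape the sheath around the growing hair, held low and intermediate members. All 4 shared type II genes of this group were under 20% in every pool. Krt71 stood at 3.23%, 4.07% and 6.06%, and Krt75, of the companion layer of the follicle, at 0%, 2.02% and 0%. Among the 4 type I genes, Krt25 stood at 5.36%, 6.98% and 1.49%, Krt26 at 1.30%, 4.04% and 10.8%, and Krt27 at 4.88%, 10.2% and 15.9%. Krt28 stood apart from these 3 neighbours in both WT pools, at 34.7% and 56.2%.

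The highest keratin promoters were few and lay on both chromosomes. Krt80, a type II epithelial keratin with a window at chr15:101369126-101371125, had 100% of 54 calls methylated in 2-month WT (interval 93.4 to 100%), 95.3% of 150 at 11 months and 100% of 23 in Tet2KO. Its whole window lies within the predicted lncRNA gene Gm35853, which is annotated on the plus strand. Low windows overlapped lncRNA genes too. The overlap was 1415 bp at Krt222 (Gm32385), at 0% in each pool, and 1415 bp at Krt25 (Gm32502), at 6.98% or less. At Defb21 it was 621 bp (Gm14161), with 1.75% or less. Krt84, with a window at chr15:101531821-101533820, was not listed in 2-month WT and was at 96.7% of 182 calls at 11 months (93 to 98.5%) and 93.8% of 32 in Tet2KO. Krt20, of intestinal and urothelial lining, was listed in the WT pools only, at 73.5% of 34 calls (56.9 to 85.4%) and 93.3% of 119, a difference of 19.7 points (6.46 to 36.7). The shared keratins not described one by one (Krt6b, Krt23, Krt32, Krt33a, Krt33b, Krt35, Krt39, Krt40, Krt42, Krt72, Krt73, Krt76, Krt77, Krt79, Krt82, Krt87 and Krt90) lay between 0% and the 13.8% of Krt33b at 11 months. At the other end, Krt222 had 0 methylated calls of 31, 43 and 22 in the 3 pools. Such counts of 0 allow a level of up to 9.68%, 6.98% and 13.6%. Over all keratins with 0 methylated calls, this limit ran from 2.40 to 16.7% in 2-month WT, from 1.33 to 7.32% at 11 months and from 1.91 to 30% in Tet2KO.

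Between 2-month and 11-month WT, 1 of 44 keratins was 20 points or more higher at 11 months, where 2.78% of all shared windows were, and 0 were 20 points or more lower, where 2.76% were. The median keratin difference was 1.02 points. The gene was Krt28, with a window at chr11:99373904-99375903: 34.7% of 49 calls for 2-month WT and 56.2% of 73 in 11-month WT, a difference of 21.5 points (3.42 to 37.4). Krt7 was intermediate in both WT pools, at 58.6% of 111 calls (49.3 to 67.3%) and 66.8% of 196 (60 to 73.1%), and the interval of its difference of 8.28 points included 0 (-2.82 to 19.5).

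Differences of 10 points or more between these pools went both ways. At 10 points, a threshold added after the values were seen, 2 keratins were higher at 11 months (6.36% of all windows) and 6 of 44 were lower (7.74% of all windows). The 6 were Krt5, Krt14, Krt15, Krt8, Krt18 and Krt19, which comprise the basal pair Krt5 and Krt14, the simple-epithelial pair Krt8 and Krt18, and Krt15 and Krt19, of hair follicle stem cells and of simple and glandular epithelia. Their levels ran from 13.4 to 20.2% in 2-month WT, from 0 to 4.48% at 11 months and from 0 to 3.67% in Tet2KO, so the 2-month WT range lay above both others, as the choice by difference makes likely. A level from 10 to under 30% in 2-month WT with under 5% in the other pools was also found in 3.51% of all windows, and 5% or more in 2-month WT with under 5% in the others in 10.4%.

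Krt8 stood at 13.5% of 251 calls in 2-month WT, 0% of 226 at 11 months and 0% of 71 in Tet2KO. Its difference was -13.5 points in both comparisons with 2-month WT, and the counts of 0 allow up to 1.33% and 4.23%. Krt18, its partner, stood at 16.4% of 214 calls, 2.38% of 294 and 0% of 84. Krt19 stood at 16.7% of 233 calls, 1.02% of 293 and 3.67% of 109.

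At the gene start, both partners of the basal pair were highest in 2-month WT. Krt5 stood at 13.4% of 134 calls, 2.08% of 96 and 2.13% of 47, and Krt14 at 17.2% of 116, 4.48% of 134 and 0% of 58. The window of Krt14 is at its annotated gene start, and its RefSeq promoter start lies 1480 bp inside the gene, outside that window. Krt15 had the highest value of the 6 in 2-month WT, 20.2% of 84 calls, against 1.80% of 167 in 11-month WT (a difference of -18.4 points, -28.3 to -10.5) and 0% of 31 in Tet2KO. Not every epithelial keratin had this pattern: Krt7 was higher than 50% in both WT pools, and Krt1, Krt16 and Krt17 were under 10% in all pools. In 2-month WT these 6 windows held 2.80 to 5.42 calls per covered position, against 3.10 to 5.07 at 11 months and 1.41 to 2.47 in Tet2KO. With each position given equal weight, the 6 genes ranged from 9.89 to 18.8% in 2-month WT and reached at most 2.73% at 11 months. Whether 1 of the 4 libraries of the 2-month WT pool carried these calls cannot be told from a pooled value.

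In Tet2KO against 2-month WT, 0 of 44 keratins were 20 points or more higher, where 3.29% of all windows were, and 3 were lower, where 3.22% were. The median keratin difference was 0 points. Krt7, with a window at chr15:101411402-101413401, was at 28.8% of 80 calls in Tet2KO (20 to 39.5%), -29.8 points from 2-month WT (-42.2 to -15.6). By the deposited fraction it stood at 50.7% in 2-month WT and 41.2% in Tet2KO, a difference of -9.42 points, which is under the 20-point threshold. The first part of this window, 791 bp, overlaps the predicted lncRNA gene Gm671 on the opposite strand. Krt28 was at 9.09% of 33 calls in Tet2KO, -25.6 points from 2-month WT (-40.8 to -6.94). Krt15, with its window at chr11:100134929-100136928, differed by -20.2 points (-30 to -7.07), just past the threshold, and by -14.9 points in the deposited fraction.

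At 10 points, 4 keratins were higher in Tet2KO than in 2-month WT (7.21% of all windows) and 8 were lower (8.97%). The 8 were the 6 genes above with Krt7 and Krt28. Of the 4, Krt24, whose window at chr11:99284263-99286262 lies within the predicted lncRNA gene Gm32385, stood at 2.86% of 35 calls in 2-month WT, 0% of 87 at 11 months and 21.9% of 32 in Tet2KO. Its difference from 2-month WT was 19 points (3.08 to 36.1), just short of the 20-point threshold, while its deposited fraction was 2.08% in 2-month WT and 35.9% in Tet2KO. The others were Krt88, Krt31 and Krt27, of which Krt31 rested on under 20 calls in each pool. The 2 comparisons with 2-month WT share that pool, so their values are not independent.

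Against 11-month WT, Tet2KO was 20 points or more higher at 1 of 44 keratins (2.09% of all windows) and lower at 2 (1.94%). The higher gene was Krt24, by 21.9 points (10.2 to 38.8). The lower genes were Krt28, at -47.1 points (-59.4 to -28.6), and Krt7, at -38.1 points (-48.8 to -25.4). At 10 points 2 were higher (5.67% of all windows) and 3 lower (5.83%). Krt28 had its highest level at 11 months and its lowest in Tet2KO, with intervals that did not overlap between these 2 pools.

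**Figure D3:**
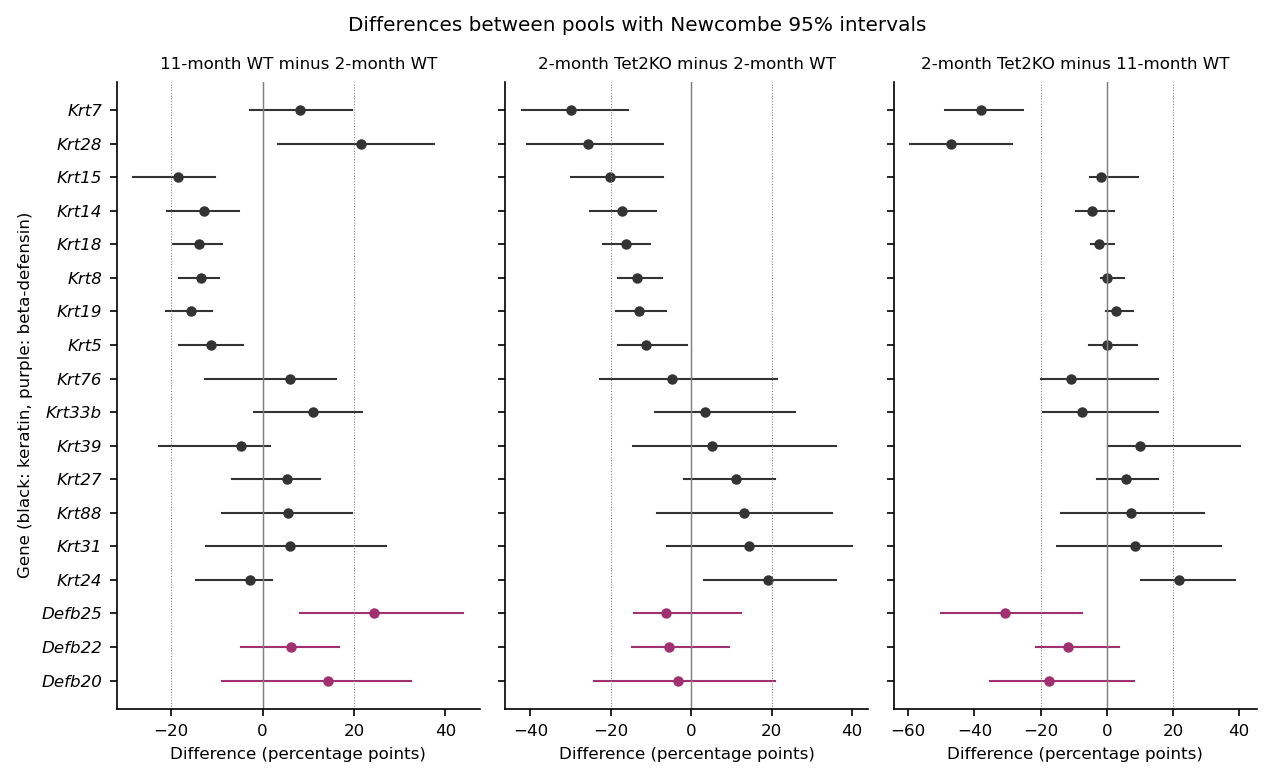
Differences in methylation level between pools (percentage points), with Newcombe 95% intervals for counting error, for every shared keratin and beta-defensin gene 10 points or more apart in at least 1 comparison. Krt7 and Krt28 lie far below 0 in Tet2KO, and Krt5, Krt8, Krt14, Krt15, Krt18 and Krt19 lie below 0 in both comparisons with 2-month WT.

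Of the 6 keratins 10 points lower at 11 months, 3 (Krt14, Krt15 and Krt19) lie on chromosome 11 and 3 (Krt5, Krt8 and Krt18) on chromosome 15. The 21 shared keratins of chromosome 11 had median levels of 2.78%, 4.04% and 5% in the 3 pools, and the 23 of chromosome 15 had 2.44%, 2.82% and 0%. By list, the median age difference was -2.86 points over 11 type I epithelial keratins, against 0 over all shared windows. Of the 11, 4 were 10 points or more lower (7.74% of all windows). Over the 4 shared simple-epithelial keratins it was -13.8 points, and their median Tet2KO difference from 2-month WT was -15.0. With age these keratins did not all go the same way. Krt8, Krt18 and Krt19 were lower at 11 months. Krt7 was 8.28 points higher, with an interval that included 0 (-2.82 to 19.5). Krt20, of intestinal and urothelial lining, is not among the 4 because Tet2KO did not list it. It was 19.7 points higher at 11 months (6.46 to 36.7). The type I epithelial and simple-epithelial lists overlap with the 6 genes above and are no further support for them.

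Of the 5 keratin genes without a member window, all had a window at the RefSeq promoter start. For them that start lies more than 200 bp from the annotated gene start. They are given apart, since the distance rule does not admit them. Krt12 was highly methylated, at 93% of 57 calls in 2-month WT, 80.4% of 102 at 11 months and 98.4% of 62 in Tet2KO, with an age difference of -12.6 points (-22.3 to -0.905). Krt10, the suprabasal partner of Krt1, was at 60.5% of 38 calls, 71.6% of 81 and 95.1% of 41, which is 34.6 points higher in Tet2KO than in 2-month WT (16.7 to 50.8). Krt78 stood at 5.06% of 79 calls for 2-month WT, 49.7% of 167 at 11 months and 44.6% of 56 in Tet2KO. Its differences from 2-month WT were 44.6 points (34.2 to 52.7) and 39.6 points (25.3 to 52.9). Krt2, of the upper epidermis, was at 0% of 171 calls, 0.913% of 219 and 0% of 62, and Krt36, a hair keratin, at 0%, 7.59% and 0%.

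Windows farther inside the genes did not always share the level of the gene start. A window inside Krt75 stood at 8.54% of 82 calls, 25.2% of 143 and 46.5% of 43, whereas the window at its start was at 2.02% or less in each pool. Its Tet2KO level was 38.0 points above 2-month WT (21.8 to 53.2). A window inside Krt76, an oral keratin, stood at 0% of 18 calls, 20.0% of 50 and 28.6% of 14. Further windows of Krt10 were at 3.51%, 4.10% and 1.85% and at 20.3%, 28.3% and 6.82%, against 60.5% or more at its promoter start. A window inside Krt80 was as high as that at its start, at 100%, 96.4% and 100%. A window inside Krt5 stood at 7.55% of 53 calls, 0.877% of 114 and 10.5% of 38. Unlike the window at the start of Krt5, it was highest in Tet2KO. Its difference of 2.98 points from 2-month WT had an interval that included 0 (-9.13 to 17.3).

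**Figure D4:**
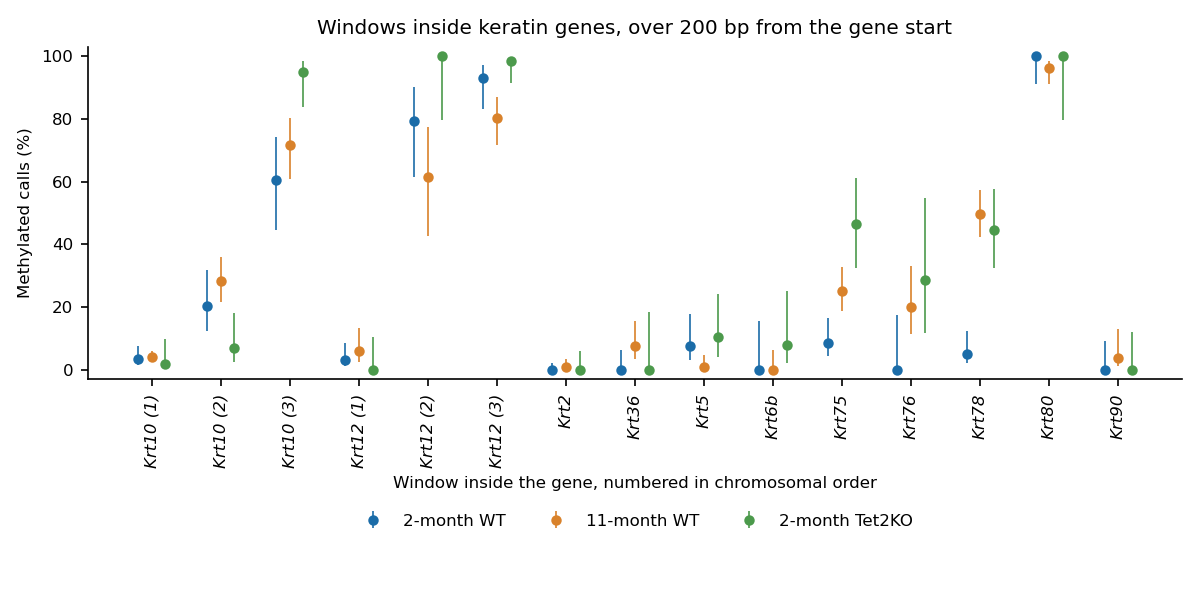
Methylation level (percent of CpG calls) of windows inside keratin genes and more than 200 bp from the annotated gene start, in the 3 pools with Wilson 95% intervals. Krt80 and the window of Krt12 numbered 3 lie at 80.4% or more in each pool, and Krt78 is at 5.06% in 2-month WT against 49.7% and 44.6%.

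Beta-defensin promoters were less often covered. A window was listed for 20 genes in 2-month WT, 26 at 11 months and 11 in Tet2KO. For 15 of the 42 genes there was none: Defb1, Defb3, Defb4, Defb6, Defb8, Defb10, Defb11, Defb12, Defb14, Defb18, Defb34, Defb37, Defb38, Defb41 and Defb47. Of these, Defb47 had a window at its RefSeq promoter start, with 3.45% of 29 calls, 10.6% of 47 and 0% of 23. The 8 shared genes with a sequence held a median of 3.5 CpGs, and the 21 other genes with a sequence held 1, so the genes that could be compared had the higher median. A window also had to hold at least 10 calls and 5 covered positions, the smallest values in the tables.

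The 10 beta-defensins listed in all pools were low, with median levels of 0% in 2-month WT, 3.79% at 11 months and 0% in Tet2KO. Under 20% were 10 of 10 in 2-month WT (80.1% of all windows), 8 at 11 months (80.8%) and 10 in Tet2KO (80.5%). The 8 that were so in all 3 pools are near the 75.9% of all windows. Of these 10, 8 lie on chromosome 2 and the other 2, Defb30 and Defb42, on chromosome 14. Defb36 had the most calls, with 1.44% of 139, 4% of 150 and 2.86% of 35. Defb29 stood at 0% of 84, 0.885% of 113 and 2.44% of 41, and Defb42 had 0 methylated calls of 20, 24 and 12, which allows up to 15% in 2-month WT and 25% in Tet2KO.

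**Figure D5:**
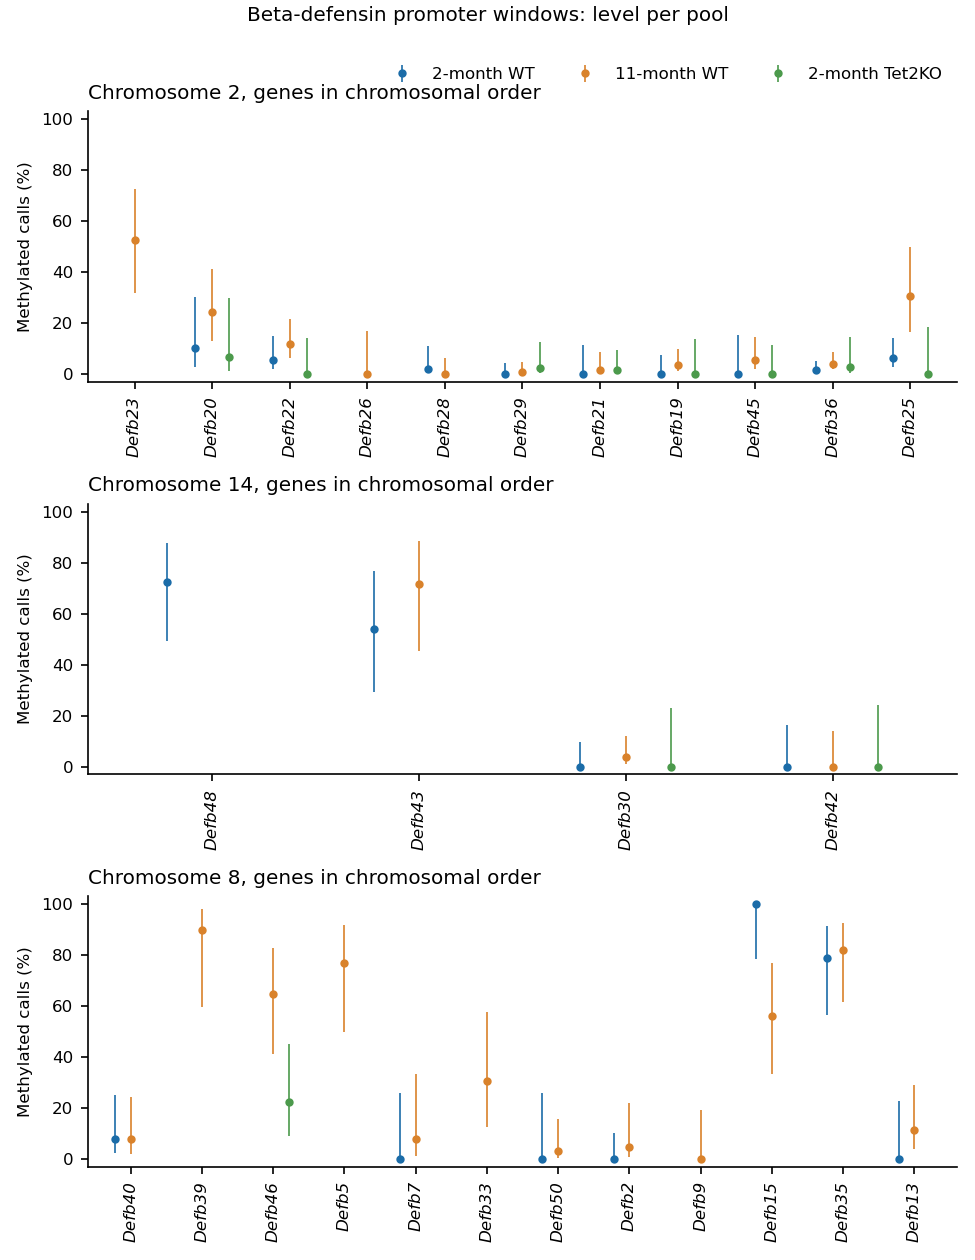
Methylation level (percent of CpG calls) of the beta-defensin promoters in the 3 pools, grouped by chromosome, with Wilson 95% intervals. Genes of chromosome 2 lie under 20% in 2-month WT and Tet2KO, while those of chromosome 8 run from 0 to 100% on few calls.

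At 11 months 9 of the 10 shared beta-defensins were above their 2-month WT level and 1, Defb42, was equal, with a median difference of 3.55 points. Over all shared windows 19554 of 40537 were above it, and the median difference was 0. The interval excluded 0 for 1 of the 10. Of the 9, Defb19, Defb21, Defb29, Defb30 and Defb45 had 0 methylated calls in 2-month WT and could not have been lower. By 20 points, 1 of 10 was higher at 11 months (2.78% of all windows) and 0 were lower (2.76%). The higher gene was Defb25, with a window at chr2:152622054-152624053: 6.41% of 78 calls in 2-month WT, 30.8% of 26 at 11 months and 0% of 17 in Tet2KO. Its age difference was 24.4 points (8.13 to 43.9), and Tet2KO lay at -30.8 points from 11-month WT (-50.0 to -7.46). With at least 20 calls required in every pool, Defb25 was no longer compared and no beta-defensin was 20 points apart in age. Defb20 stood at 10% of 20 calls, 24.2% of 33 and 6.67% of 15, and Defb22, whose product coats sperm, at 5.45% of 55, 11.8% of 68 and 0% of 23. Defb45 stood at 0% of 21, 5.36% of 56 and 0% of 30, Defb19 at 0%, 3.53% and 0%, and Defb21 at 0%, 1.61% and 1.75%. The 11-month pool was the most deeply sequenced, with a median of 59 calls at these genes. Whether depth had a part in the direction was not tested.

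Tet2KO and 2-month WT differed by 20 points or more at 0 of 10 beta-defensins in either direction (3.29% of all windows higher, 3.22% lower). The level was above that of 2-month WT for 3, below it for 3 and equal for 4. Against 11-month WT, 0 were higher (2.09% of all windows) and 1, Defb25, was lower (1.94%).

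Beta-defensins of chromosome 8, the family's main cluster, were more mixed than those of chromosome 2, on few calls. No gene of chromosome 8 was listed in all pools. In 11-month WT the 12 listed genes held 10 to 32 calls each: 6 were under 20%, 4 were from 20 to under 80% and 2 were at 80% or more, with a median of 21.2%. In that pool 80.8% of all shared windows were under 20% and 11.4% were at 80% or more. Those shared windows were far better covered, with a median of 245 calls. Of the shared windows with 5 to 29 covered positions, 57.6% had a mean level over the pools under 20% and 26.9% had 80% or more. On chromosome 2, 8 of 11 genes (72.7%) were under 20% there. The highest on chromosome 8 were Defb39, at 90% of 10 calls, Defb35, at 78.9% of 19 in 2-month WT and 81.8% of 22 in 11-month WT, and Defb5, at 76.9% of 13 in 11-month WT. Defb15, with a window at chr8:21931711-21933710, stood at 100% of 14 calls in the younger WT pool and 56.2% of 16 in 11-month WT, a difference of -43.8 points (-66.8 to -13.9). Defb46 stood at 64.7% of 17 calls at 11 months and 22.2% of 18 in Tet2KO, the only chromosome 8 gene listed there. Low ones included Defb2, at 0% of 34 and 4.55% of 22 in the WT pools, and Defb40, at 8% of 25 and 7.69% of 26. The other partly listed genes of the family, Defb7, Defb9, Defb13, Defb28, Defb33 and Defb50, lay between 0% and the 30.8% of Defb33.

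Some partly listed genes of the other clusters were also methylated. On chromosome 14, Defb43 stood at 53.8% of 13 calls and 71.4% of 14 in the WT pools, and Defb48 at 72.2% of 18 in 2-month WT. On chromosome 2, Defb23 stood at 52.6% of 19 calls in 11-month WT, its only listing, while Defb26 stood at 0% of 19 there. Over all 26 beta-defensins listed in 11-month WT, 16 (61.5%) were under 20%, against 80.8% of all shared windows. That background is unlike them in coverage: the 26 held a median of 25 calls in this pool, and the shared windows 245. Of the shared windows with 5 to 29 covered positions, 57.6% had a mean level over the pools under 20%. Intervals on few calls are wide, and the one for Defb43 in 2-month WT ran from 29.1 to 76.8%.

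Genes that act beside the members are given here against the 75.9% of all shared windows that were under 20% in all pools. The share was 76% for keratin-associated proteins and 73.3% for other intermediate filament genes, both near that background. It was 81.8% for other antimicrobial and epididymal genes and 92.3% for desmosome and linker genes. These differences were not tested. Keratin-associated proteins, which crosslink hair keratins, were shared for 25 genes with medians of 4.08%, 4.00% and 4.69%, and 19 of the 25 were under 20% in all pools, where 75.9% of all windows were. At 11 months 1 of these was 20 points higher than in 2-month WT (2.78% of all windows) and 3 were lower (2.76%). Desmosome and linker genes, which anchor keratin filaments, were shared for 13, with medians of 1.87%, 1.75% and 2.00%, and 12 were under 20% throughout. Cornified envelope genes, which build the shell of the outermost epidermal cells, were shared for only 7 of 45, and all 7 were under 20% in each pool. The other intermediate filament genes, such as vimentin and lamins, were shared for 15, of which 11 were under 20% in all pools and 2 were 20 points lower at 11 months (2.76% of all windows). Other antimicrobial and epididymal genes were shared for 22, with 18 under 20% in all pools. Of the alpha-defensins, the antimicrobial peptides of intestinal Paneth cells, 0 were shared.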

How the data were processed

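Low-input bisulfite libraries of MII oocytes were processed by the submitters. Trimmomatic, Bismark (version field 12.5) and mm10 appear in the submitters' processing notes, and anything further is not given in the sources used here. Counts deposited by the authors are methylated CpG calls per 2000 bp window and the deposited coverage is the number of all its CpG calls, both pooled by the authors over the libraries of a group. The deposited fraction is the authors' mean of the methylated share over covered positions, and it served as an alternative.

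Levels, Wilson and Newcombe 95% intervals and counts of genes 20 points or more apart were computed with Python 3.11.15, pandas 2.3.3, numpy 2.4.6 and scipy 1.17.1. The code was tested on simulated data. Plots used matplotlib 3.10.9. Classes were under 20%, 20 to under 80% and 80% or more. Windows were named by distance (200 bp) to RefSeq gene starts on GRCm38.p6. For 52 members the strand was known, and for the other 23 either gene end was accepted, with 0 of them having windows at both ends. Of 95 genes, 65 had a RefSeq promoter sequence. Groups follow the sample titles, and no test was run because each group has 1 pooled value. The 1 line cut off in the 2-month WT table was not used.

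The genes and lists were chosen with earlier results of these data known. Named genes are those 20 points or more apart with an interval that excludes 0, the 5 highest and 5 lowest of each family, those intermediate in all pools and well-known members. Partly listed genes, genes with windows elsewhere and those 10 points apart were added after their values were seen. Alternatives covered the deposited fraction, minimum calls, distance, window choice, thresholds and classes.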

Additional observations from a re-analysis of the deposited data

How the results depend on the processing

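No paired analysis was possible because each group was deposited as 1 pooled column that carries no replicate number, and for the same reason no library could be left out in turn. Depth limited the beta-defensins most: at least 50 calls in every pool left 0 of them.

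With the deposited fraction, 2 keratins were 20 points higher and 1 was lower in Tet2KO than in 2-month WT, and 2 were higher than in 11-month WT. Krt7 then differed by -9.42 points between Tet2KO and 2-month WT. With at least 20 calls (38 keratins, 6 beta-defensins), 6 beta-defensins were under 20% in 2-month WT and 6 in Tet2KO, 0 were higher at 11 months and 0 were lower in Tet2KO than in 11-month WT. With at least 50 calls (17 keratins), 16 keratins were under 20% and 0 at 80% or more in each pool, 0 were higher at 11 months, 1 was lower in Tet2KO than in 2-month WT, and 0 were higher and 1 lower than in 11-month WT. Within 1000 bp of a gene start, 2 keratins were at 80% or more in each pool. At 30 points, 0 keratins and 0 beta-defensins were higher at 11 months. In Tet2KO 0 keratins were then lower than in 2-month WT and 0 higher than in 11-month WT. No share over all windows was computed for the deposited fraction, minimum calls or 30 points.

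The following were added after the data were seen. At 10 points, 2 keratins were higher (6.36% of all windows) and 6 lower (7.74%) at 11 months. In Tet2KO 4 were higher (7.21%) and 8 lower (8.97%) than in 2-month WT, and 2 were higher than in 11-month WT (5.67%). By the same threshold 2 of 10 beta-defensins were higher at 11 months (6.36% of all windows). In Tet2KO 3 of 10 were lower than in 11-month WT (5.83%). With windows at RefSeq promoter starts added (49 keratins, 11 beta-defensins), 2, 2 and 3 keratins were at 80% or more in 2-month WT, 11-month WT and Tet2KO, 2 were higher at 11 months, and in Tet2KO 2 were higher than in 2-month WT and 2 higher than in 11-month WT. With members of known strand only (27 keratins, 8 beta-defensins), 25 keratins were under 20% and 0 at 80% or more in each pool, 0 beta-defensins were higher at 11 months and 0 lower in Tet2KO than in 11-month WT. The smaller totals come from fewer genes compared. No named difference of 20 points or more changed sign with the deposited fraction. Most other settings left these values unchanged or dropped the genes, so they were no check of sign.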

Other observations

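The neighbourhoods of the 2 keratin clusters differed in the windows around them. On chromosome 11 the keratin span of 1.03 Mb also held 33 other shared windows, many of them keratin-associated protein genes, of which 30 had a mean level over the pools under 20% and 2 had 80% or more. Within 200 kb outside it, 23 of 23 windows were under 20%. On chromosome 15 the span of 0.660 Mb held 10 other windows, 8 of them under 20%, while of 19 windows within 200 kb outside it 11 were under 20% and 8 were at 80% or more. In single pools, 80.1 to 80.8% of all shared windows were under 20% and 11.1 to 11.5% were at 80% or more. Several of the other windows within the spans lie inside keratin genes, so they are not separate surroundings. They include the 2 at 80% or more on chromosome 11, in Krt12, and the 2 intermediate ones on chromosome 15, in Krt75 and Krt78. Several windows can lie in 1 gene, as inside Krt10, so they are not independent, and the difference between the clusters was not tested. Among single windows, an unnamed one in the beta-defensin region of chromosome 8, at chr8:19492189-19494188, stood at 82.8% of 262 calls in 2-month WT, 48.2% of 83 in 11-month WT and 0% of 13 in Tet2KO. It was picked out after its values were seen, and the difference was not tested.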
